A study of Mus musculus with 14 samples.

Results

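Gata2, Gata3, Gata4, Gata5 and Gata6 encode GATA transcription factors, and the H3K27me3 signal over and around these genes was examined in mouse embryonic stem cells (mESCs). The members were the peaks of a shared peak list that lay within 10 kb of the RefSeq body of 1 of the 5 genes. They were 53 of 74458 peaks and belonged to 5 of the 31001 genes that had a peak within that distance. Gata2 had 10 of them, Gata3 had 15, Gata4 had 16, Gata5 had 5 and Gata6 had 7, and all 53 passed the filter on low counts. Gata1, the X-linked member of the family, was not in the set and is given with the relatives.

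The study asked whether removing one anchor of a Polycomb-associated chromatin loop alters H3K27me3 elsewhere on the chromosome. H3K27me3 was profiled by Cut&Tag, in which an antibody directs a transposase to cut the DNA next to the mark, in 3 libraries of the Hoxa deletion, 2 of the Wnt6 deletion and 2 of the Hmx1 deletion. All 3 genotypes were homozygous CRISPR-Cas9 deletions made in G4 mESCs, a 129/Sv × C57BL/6 F1 hybrid line, and all cells were grown with LIF on CD1 feeder cells. The table holds no column of unedited cells, so each deletion was set against the other 2 pooled. The labels name neither clones nor separate cultures. Differences between deletions and between clones cannot be told apart, and p-values measure the spread between these libraries, which may be technical. Counts come from both alleles of many cells, so a smaller share of marked cells or alleles and less mark on each cannot be told apart.

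GATA factors are zinc finger proteins that bind the sequence core GATA and direct the choice of cell lineage. Gata2 acts in blood stem and progenitor cells, Gata3 in T cells and the trophoblast, Gata4 and Gata6 in the primitive endoderm and the heart, and Gata5 in the heart and gut endoderm. In mESCs such lineage genes are typically kept silent by Polycomb repressive complex 2, which places H3K27me3 over CG-rich start regions and spreads it over the neighbouring chromatin.

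The sequences just before the starts of Gata2, Gata3 and Gata5 are shown because the peaks of these genes sit on them. Each is the 250 bases before a RefSeq start (GRCm38.p6), 5′ to 3′ on the strand of the gene, with every CG in capitals. Gata4 and Gata6 are named only.
Gata2, start of the longer gene model, chr6:88193641-88193890, plus strand: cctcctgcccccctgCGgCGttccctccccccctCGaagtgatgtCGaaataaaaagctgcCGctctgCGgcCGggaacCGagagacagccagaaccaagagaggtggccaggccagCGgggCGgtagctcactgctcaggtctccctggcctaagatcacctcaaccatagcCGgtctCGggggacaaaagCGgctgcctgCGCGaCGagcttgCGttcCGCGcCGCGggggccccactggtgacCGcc
Gata2, inner start, chr6:88198414-88198663, plus strand: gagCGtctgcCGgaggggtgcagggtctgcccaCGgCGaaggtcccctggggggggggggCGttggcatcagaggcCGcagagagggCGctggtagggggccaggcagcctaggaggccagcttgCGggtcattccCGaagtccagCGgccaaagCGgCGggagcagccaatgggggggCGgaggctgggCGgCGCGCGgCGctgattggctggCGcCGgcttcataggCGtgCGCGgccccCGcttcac
Gata3, chr2:9878601-9878850, minus strand: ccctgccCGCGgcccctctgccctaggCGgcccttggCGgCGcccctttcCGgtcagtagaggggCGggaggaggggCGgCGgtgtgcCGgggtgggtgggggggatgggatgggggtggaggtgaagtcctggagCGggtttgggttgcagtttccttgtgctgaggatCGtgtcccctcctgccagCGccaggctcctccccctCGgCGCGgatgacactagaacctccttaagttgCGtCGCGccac
Gata5, chr2:180334680-180334929, minus strand: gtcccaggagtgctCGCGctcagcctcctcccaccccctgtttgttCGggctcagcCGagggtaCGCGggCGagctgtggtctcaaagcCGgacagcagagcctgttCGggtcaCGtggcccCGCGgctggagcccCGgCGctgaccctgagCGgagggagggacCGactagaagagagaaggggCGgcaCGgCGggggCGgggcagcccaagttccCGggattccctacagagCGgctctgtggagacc

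All 4 windows met a peak. The window of the longer Gata2 model and that of its inner start lay wholly inside peaks of 96.4 and 75.9 CPM (counts scaled to the TMM-corrected library total), and the Gata5 window lay wholly inside a peak of 161 CPM. The Gata3 window shared 238 of its bases with a narrow peak of 22.3 CPM, and the start itself lay 13 bp beyond the edge of that peak. The windows held 22 CG (Gata2, longer model), 24 CG (Gata2, inner start), 19 CG (Gata3) and 22 CG (Gata5), with 67.2, 74.0, 70.0 and 70.0% G or C. Of 32851 RefSeq promoter windows of the same length, 14.8, 11.98, 19.7 and 14.8%, respectively, held at least as many CG. The median window of the genome held 6 CG, the 13960 windows that met a peak held a median of 16, and the 18891 that met none held 3. None of the 4 windows held the letters GATA, on either strand, and hence none held the GATA factor motif (AGATAA and the spellings of it with T as the first or G as the last letter, which all contain GATA). Of all promoter windows, 53.6% held GATA and 26.5% held a spelling of the motif, against 36.6 and 14.0% of windows that met a peak. A window without the letters says nothing about binding elsewhere.

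Library totals ranged from 6016500 to 36563541 counts, and Wnt6 replicate 2 was the deepest while Hmx1 replicate 1 was the shallowest. Each deletion was visible as a run of peaks with almost no counts, which was 46 peaks at chr6:52163046-52274461 for Hoxa, 34 peaks at chr1:74768523-74901291 for Wnt6 and 11 peaks at chr5:35382872-35401827 for Hmx1, where 0.0944 to 0.553% of the signal of the other genotypes remained. The label of the cells was checked at 8 pluripotency genes, 7 of which had a peak. Their median density was 7.14 CPM per kb of peak against 52.0 for the 5 Gata genes and 9.37 for all genes. Pou5f1, Nanog, Zfp42 and Tfcp2l1 lay below the median of all genes. Sox2 (18.5 CPM per kb), Esrrb (17.7) and Klf4 (10.2) lay above it, and Esrrb summed to 248 CPM over 22 peaks. Feeder fibroblast genes, 7 of 8 with a peak, had a median density of 29.4 CPM per kb and a summed level of 1036 to 1157 CPM per library, with no gene of the list past an adjusted p of 0.05 (edgeR) in any deletion. The share of feeder cells was not measured.

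The Gata genes were among the most strongly marked genes of these cells. Summed over its peaks, Gata4 carried 607 CPM ± 33.7 (SD, n = 7), Gata3 603 CPM ± 31.9, Gata2 554 CPM ± 31.5, Gata6 365 CPM ± 18.1 and Gata5 176 CPM ± 7.16. The median gene carried 14.0 CPM. By this sum Gata4 and Gata3 stood at the 99.4th percentile of all genes, Gata2 at the 99.2nd, Gata6 at the 97.4th and Gata5 at the 90.6th. The sum grows with the length covered by peaks, which was 13.7 kb at Gata4, 11.2 kb at Gata3, 8.91 kb at Gata2, 7.01 kb at Gata6 and 3.83 kb at Gata5.

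Per kb of peak the order was different. Gata2 was densest at 62.2 CPM per kb ± 3.54 (SD, n = 7), followed by Gata3 (53.8 ± 2.84), Gata6 (52.0 ± 2.58), Gata5 (45.9 ± 1.87) and Gata4 (44.5 ± 2.47). Neighbours in this order were set against each other within libraries, as a description with no test, since the order came from the same values. Gata2 exceeded Gata3 1.15-fold, in 7 of 7 libraries (log2 ratio 0.21 ± 0.04, SD). Gata6 exceeded Gata5 1.13-fold, also in 7 of 7 (0.18 ± 0.07). Gata3 over Gata6 (1.04-fold, 6 of 7, 0.05 ± 0.05) and Gata5 over Gata4 (1.03-fold, 5 of 7, 0.05 ± 0.07) differed by no more than about the spread between libraries. The lower part of the order depended on the window. With peaks on the gene body alone, Gata5 (61.4 CPM per kb) came close to Gata6 (63.3), and within 25 kb Gata5 (36.2) fell below Gata4 (40.01), whereas Gata2 was densest in all 3 windows.

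Each gene kept nearly the same level in every library. Gata2 had 597, 533 and 554 CPM in the Hoxa deletion, 540 and 503 CPM in the Wnt6 deletion, and 566 and 582 CPM in the Hmx1 deletion. The deletions overlapped. Gata3 had 618, 591 and 595 CPM in the Hoxa deletion, 607 and 543 CPM in the Wnt6 deletion, and 637 and 633 CPM in the Hmx1 deletion. Both Hmx1 libraries lay above the other 5.

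Gata4 had 624, 594 and 579 CPM in the Hoxa deletion, 631 and 556 CPM in the Wnt6 deletion, and 609 and 656 CPM in the Hmx1 deletion, and the deletions overlapped. Gata5 had 172, 167 and 179 CPM in the Hoxa deletion, 174 and 169 CPM in the Wnt6 deletion, and 184 and 185 CPM in the Hmx1 deletion. Again both Hmx1 libraries were the highest. Gata6 had 393, 351 and 369 CPM in the Hoxa deletion, 357 and 337 CPM in the Wnt6 deletion, and 370 and 374 CPM in the Hmx1 deletion, and the deletions overlapped. Of all genes, 19.5% had Hmx1 libraries that did not overlap the others, and the share was 25.7% for Hoxa and 10.6% for Wnt6 libraries, which overlapped the others at all 5 Gata genes. With 5 genes, 2 that do not overlap are not set apart from that background.

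**Figure D1:**
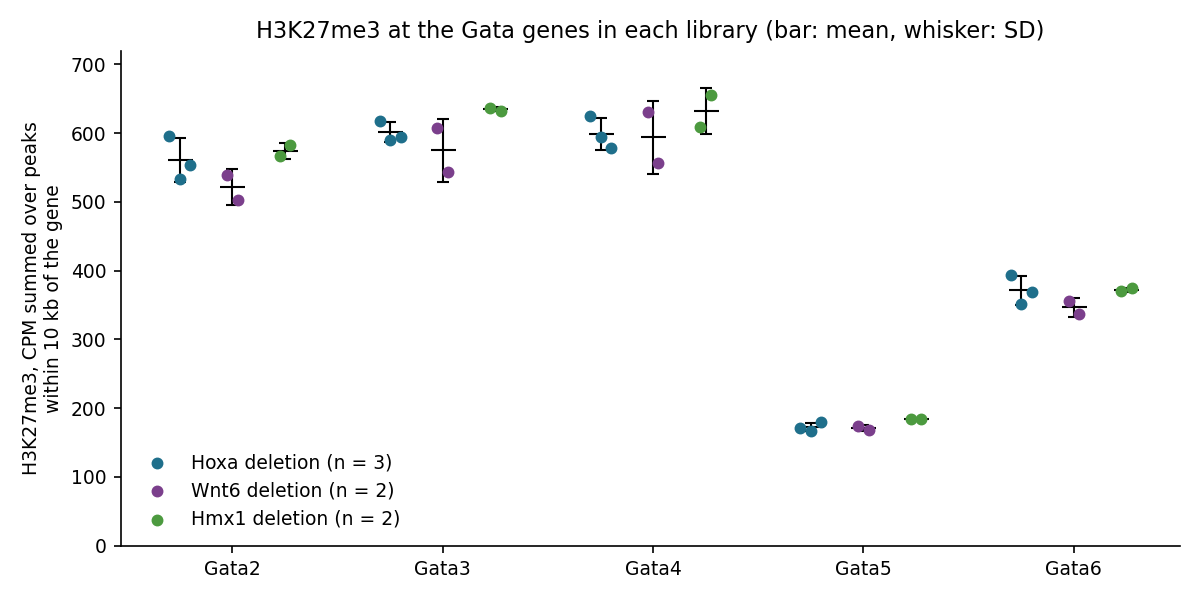
H3K27me3 at each Gata gene, in CPM summed over the peaks within 10 kb of the gene (vertical axis, from 0), for every library of the 3 deletions; points are libraries, the bar is the mean and the whisker the SD. Each gene keeps nearly the same level in all 7 libraries, with the highest at most 1.19-fold above the lowest; Gata5 (167 to 185 CPM) and Gata6 (337 to 393 CPM) stand apart, while the levels of Gata2, Gata3 and Gata4 overlap.

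The coefficient of variation over the 7 libraries was 4.08% at Gata5, 4.96% at Gata6, 5.28% at Gata3, 5.55% at Gata4 and 5.69% at Gata2. The 3101 genes above the 90th percentile of summed signal had a median of 5.89%, so the steadiness of the Gata genes was that of strongly marked genes in general.

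The deletions were then compared at the level of the gene. Of 5 Gata genes, 0 were called in any deletion by edgeR or DESeq2, where a call needed an absolute log2 fold change over 1 and an adjusted p under 0.05 in edgeR over all genes. The edgeR rule called 0.771% of all genes tested in the Hoxa deletion, 0.0387% in the Wnt6 deletion and 0.029% in the Hmx1 deletion. At an unadjusted p under 0.05, 0 of the 5 genes passed in each comparison, against 28.9, 5.67 and 13.1% of all genes. In the Hoxa deletion the log2 fold changes were 0.03 ± 0.07 (SE) at Gata2, -0.01 ± 0.06 at Gata3, -0.03 ± 0.06 at Gata4, -0.04 ± 0.06 at Gata5 and 0.05 ± 0.07 at Gata6. Adjusted p-values of edgeR were between 0.717 and 0.954. The 95% intervals ran from -0.17 at the lowest to 0.18 at the highest.

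In the Wnt6 deletion all 5 estimates were below 0, from -0.12 at Gata2 to -0.04 at Gata4, with intervals between -0.26 and 0.12 and adjusted p-values of edgeR between 0.847 and 0.919. The Gata4 estimate turned to 0.04 when Wnt6 replicate 2 was left out. In the Hmx1 deletion all 5 were above 0, from 0.04 at Gata6 to 0.10 at Gata3 and Gata5, with adjusted p-values between 0.460 and 0.829, but 4 of the 5 signs turned when libraries were scaled with offsets that depend on abundance (-0.04 at Gata2, -0.02 at Gata3, -0.04 at Gata4 and -0.05 at Gata6). The intervals of the Hmx1 deletion lay between -0.11 and 0.25. Each of these deletions was in the pooled reference of the other, so their opposite signs are not independent results. Strongly marked peaks of the whole genome leaned the same way, by less. Above the 90th percentile of CPM, 35.6% of 7446 peaks were higher in the Wnt6 deletion (median log2 fold change -0.04) and 63.3% were higher in the Hmx1 deletion (median 0.05). Of the 22 member peaks in this band, 4 were higher in the Wnt6 deletion (median -0.11) and 18 in the Hmx1 deletion (median 0.08). The difference between the members and the band, and the part of this offset in the Gata values, was not tested.

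**Figure D2:**
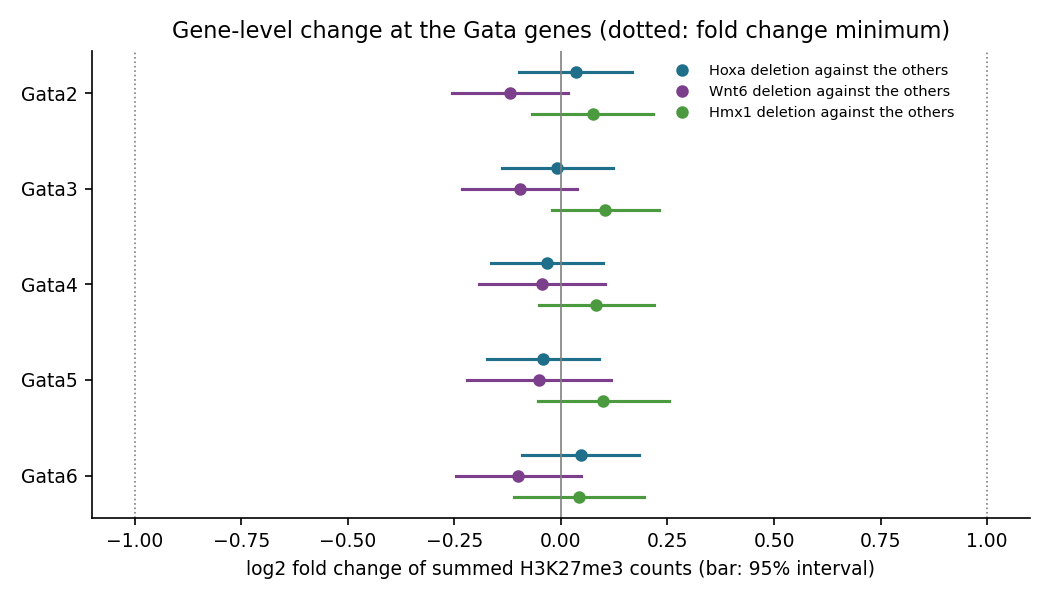
Log2 fold change of the summed H3K27me3 counts of each Gata gene in each deletion against the other 2 pooled (points) with its 95% interval (bars); the dotted lines mark the fold change a call needed. All 15 intervals include 0 and lie between -0.26 and 0.25; the signs in the Hmx1 deletion, all above 0 here, turn for Gata2, Gata3, Gata4 and Gata6 with abundance-dependent offsets.

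Among the 53 single peaks, 0 were called in each of the 3 comparisons, against 1.55% of all peaks tested in the Hoxa deletion, 0.0497% in the Wnt6 deletion and 0.0282% in the Hmx1 deletion. At an unadjusted p under 0.05 edgeR gave 8, 2 and 5 of them and DESeq2 gave 7, 1 and 5, where edgeR gave 20.8, 5.2 and 8.96% of all peaks. The members' median log2 fold change was -0.0010 in the Hoxa deletion (26 higher, 27 lower), -0.10 in the Wnt6 deletion (14 higher, 39 lower) and 0.10 in the Hmx1 deletion (40 higher, 13 lower). The medians over all 74439 peaks tested were -0.0054, -0.0026 and -0.0060. Member values ranged from -0.84 to 0.58 in the Hoxa deletion, from -0.59 to 0.24 in the Wnt6 deletion and from -0.33 to 0.66 in the Hmx1 deletion.

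The members were wider and stronger than the usual peak. Their median width was 550 bp (231 to 3514 bp) against 476 bp for all peaks, and their median level was 22.3 CPM against 3.80 CPM. Of the 53, 22 lay above the 90th percentile of CPM and 8 below the 50th, of which 4 were at Gata4, 2 at Gata3 and 0 at Gata2.

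**Figure D3:**
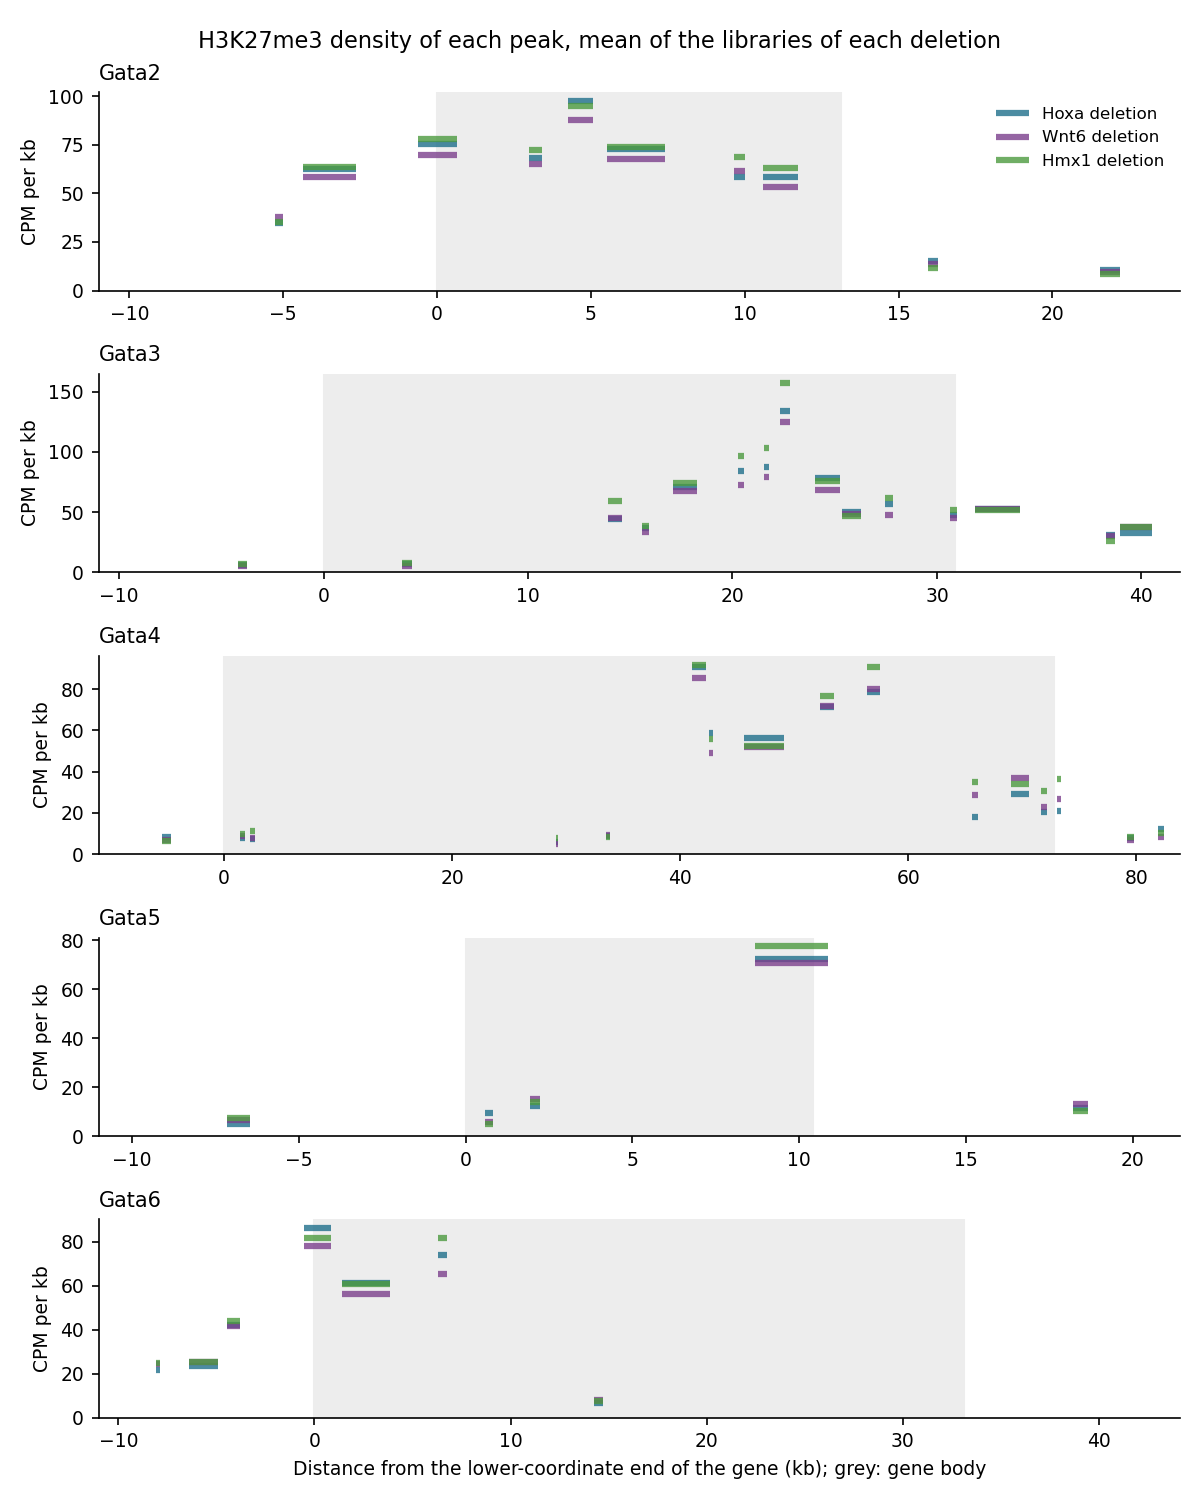
Density of H3K27me3 in each member peak, in CPM per kb of peak (vertical axes, from 0), against the distance from the lower-coordinate end of the gene in kb; each segment spans a peak at the mean of the libraries of a deletion (3 for Hoxa, 2 for Wnt6, 2 for Hmx1) and grey marks the gene body. Gata2 is covered on both sides of its start, Gata3, Gata4 and Gata6 carry dense blocks on a part of the gene, and Gata5 has a single dense peak of 73.5 CPM per kb; the 3 deletions follow the same profile.

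At Gata2 (chr6:88193891-88207032) strong peaks stood on the lower-coordinate flank, over both starts and along most of the gene. The strongest peak, chr6:88199399-88201312, had 145, 132 and 140 CPM in the Hoxa deletion, 132 and 127 CPM in the Wnt6 deletion, and 135 and 147 CPM in the Hmx1 deletion. The libraries of the 3 deletions overlapped. It held 24.7% of the signal of the gene, and the densest peak was that over the inner start (94.1 CPM per kb), whose CG-rich sequence is given above.

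Gata2 is the only member on chromosome 6, the chromosome of the Hoxa deletion, and its nearest peak lies 35.9 Mb from the deleted run. Its 10 peaks had log2 fold changes from -0.15 to 0.28 in the Hoxa deletion, with a median of 0.03 and 0 calls. The 3436 peaks of chromosome 6 more than 10 Mb from the run had a median of 0.01, and 67 of them were called. Within 1 Mb of Gata2, 131 other peaks had values from -1.32 to 1.01, of which 2 were called. The nearer called peak, chr6:87457061-87457958, lay 736 kb from the Gata2 gene body and was lower in the Hoxa deletion (log2 fold change -1.32 ± 0.16, edgeR adjusted p = 5.6e-08). At the other members the nearest called peak of the Hoxa deletion was 388 kb away for Gata6, 1.44 Mb for Gata4, 6.20 Mb for Gata5 and 8.63 Mb for Gata3.

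At Gata3 (chr2:9857078-9887953) the dense block lay over the higher-coordinate part of the gene and ran past that edge of the gene body. Gata3 is on the minus strand, so this edge is the 5′ side, and the start shown above lies inside the body. The strongest peak, chr2:9888962-9891144, had 117, 119 and 108 CPM in the Hoxa deletion, 125 and 105 CPM in the Wnt6 deletion, and 103 and 122 CPM in the Hmx1 deletion, with overlap between all 3. The densest member peak of any Gata gene was chr2:9879392-9879868, at 138 CPM per kb, upstream of the start shown above. The 3 Gata3 peaks denser than 80 CPM per kb sit around that start and were chosen after their values were seen. They varied between libraries by 18.7 to 19.6% (coefficient of variation), against 4.24 to 23.3% at the other 12 Gata3 peaks. The 23.3% belonged to a weak peak of 3.15 CPM, chr2:9860912-9861405. Summed, the 3 peaks varied by 18.6% and the other 12 by 5.03%. The sum of the 3 peaks was 112, 94.3 and 128 CPM in the Hoxa deletion, 111 and 91.3 CPM in the Wnt6 deletion, and 153 and 107 CPM in the Hmx1 deletion. The Hmx1 replicates differed 1.43-fold there, more than any deletion did from the others, while the other 12 Gata3 peaks summed to 484 and 526 CPM in the same replicates. Hmx1 replicate 1, the high one, is the shallowest library. The Gata3 peaks next to these at higher coordinates lie partly on the noncoding genes 4930412O13Rik and 9230102O04Rik, and their counts cannot be split between the genes.

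At the Gata3 peak chr2:9871001-9871657 both Hmx1 libraries stood above the rest, with 39.2 and 38.6 CPM against 27.2, 29.5 and 30.7 CPM in the Hoxa deletion and 29.8 and 29.6 CPM in the Wnt6 deletion. The log2 fold change was 0.41 ± 0.12 (edgeR adjusted p = 0.347), and 15.0% of all peaks had Hmx1 libraries that did not overlap the others. The adjusted p-value ranged from 0.0183 to 0.971 over 18 other settings and was under 0.05 in 2 of them.

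At Gata4 (chr14:63198914-63271712), the longest of the 5 genes at 72.8 kb, the strong peaks lay in the higher-coordinate part of the body. The strongest peak of all members, chr14:63244502-63248016, had 200.4, 200.3 and 191 CPM in the Hoxa deletion, 197 and 168 CPM in the Wnt6 deletion, and 171 and 196 CPM in the Hmx1 deletion. All 3 deletions overlapped, and the peak held 31.1% of the signal of the gene. The 5 Gata4 peaks at lower coordinates than the dense blocks had between 1.48 and 5.99 CPM.

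The higher-coordinate edge of Gata4 held the only member peaks past an adjusted p of 0.05. The first, chr14:63264491-63265000, lay inside the gene and had 9.99, 10.4 and 7.22 CPM in the Hoxa deletion, 12.8 and 16.4 CPM in the Wnt6 deletion, and 15.7 and 19.95 CPM in the Hmx1 deletion. All 3 Hoxa libraries lay below the other 4. At 18.3% of all peaks the Hoxa libraries did not overlap the others. The log2 fold change was -0.84 ± 0.15 (edgeR adjusted p = 7.8e-05), which missed the fold needed for a call. Over 18 other settings the value ran from -0.99 to -0.68 and the adjusted p-value from 1.2e-05 to 0.0511, under 0.05 in 17 of them.

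The other, chr14:63271980-63272272, lay just beyond the end of the gene and was named after its values were seen. It had 5.88, 5.62 and 6.96 CPM in the Hoxa deletion, 6.997 and 8.52 CPM in the Wnt6 deletion, and 11.8 and 9.52 CPM in the Hmx1 deletion. The highest Hoxa library and the lowest Wnt6 library were nearly level. The estimate on the log2 scale was -0.56 ± 0.17 (edgeR adjusted p = 0.025), with adjusted p-values from 0.0074 to 0.711 in the other settings, under 0.05 in 11 of 18. At an adjusted p under 0.05 with no fold minimum, edgeR thus gave 2, 0 and 0 of the 53 member peaks in the Hoxa, Wnt6 and Hmx1 deletions, against 8.52, 0.0564 and 0.0309% of all peaks. In the Hoxa deletion 4.2% of all peaks were lower at that threshold, and 2 of 53 is close to that share. With a term for each genotype in place of the pooled others, the counts were 3, 0 and 3. The share of all peaks that passed in that model was not computed, so these counts cannot be judged against it.

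Between these peaks lay chr14:63267917-63269488 (-0.27, edgeR adjusted p = 0.098) and chr14:63270545-63271108 (-0.40, edgeR adjusted p = 0.083), neither of which passed. At chr14:63270545-63271108 and at chr14:63271980-63272272 both Hmx1 libraries also lay above the other 5, with log2 fold changes of 0.53 and 0.61 in the Hmx1 deletion, neither past an adjusted p of 0.05 in edgeR. Against the Wnt6 deletion alone the Hoxa values at these peaks were smaller, at -0.17 and -0.37. Summed over the 4 neighbouring peaks, a stretch of 7.78 kb chosen after its values were seen and given with no test, the signal was 74.3, 79.2 and 65.7 CPM in the Hoxa deletion, 97.6 and 88.6 CPM in the Wnt6 deletion, and 90.9 and 108 CPM in the Hmx1 deletion. The Hoxa mean was 0.759 times that of the other 4 libraries. The sum of the other 12 Gata4 peaks, which a few strong ones dominate, had a mean CPM of 526 ± 20.8 for the Hoxa deletion (SD, n = 3), 501 ± 46.8 with the Wnt6 deletion (n = 2) and 533 ± 21.5 with the Hmx1 deletion (n = 2). The Hoxa mean of this sum was 1.02 times that of the other 4 libraries. Beyond the edge, the weak peak chr14:63280769-63281319 went the other way, with 8.11, 6.27 and 5.99 CPM in the Hoxa deletion, 4.73 and 4.42 CPM in the Wnt6 deletion, and 5.92 and 5.20 CPM in the Hmx1 deletion. All 3 Hoxa libraries lay above the other 4 there, and the log2 fold change was 0.43 (edgeR adjusted p = 0.135). Over 18 other settings this value ran from 0.29 to 0.57. Both Wnt6 libraries were the lowest there, with a log2 fold change of -0.45 in the Wnt6 deletion (edgeR adjusted p = 0.920). Neil2, which encodes a DNA repair glycosylase, also lies within 10 kb of Gata4. Likewise Gm38708 overlaps Gata2, Gata5os overlaps Gata5 and Gata6os overlaps Gata6, and peaks there cannot be assigned to 1 gene.

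**Figure D4:**
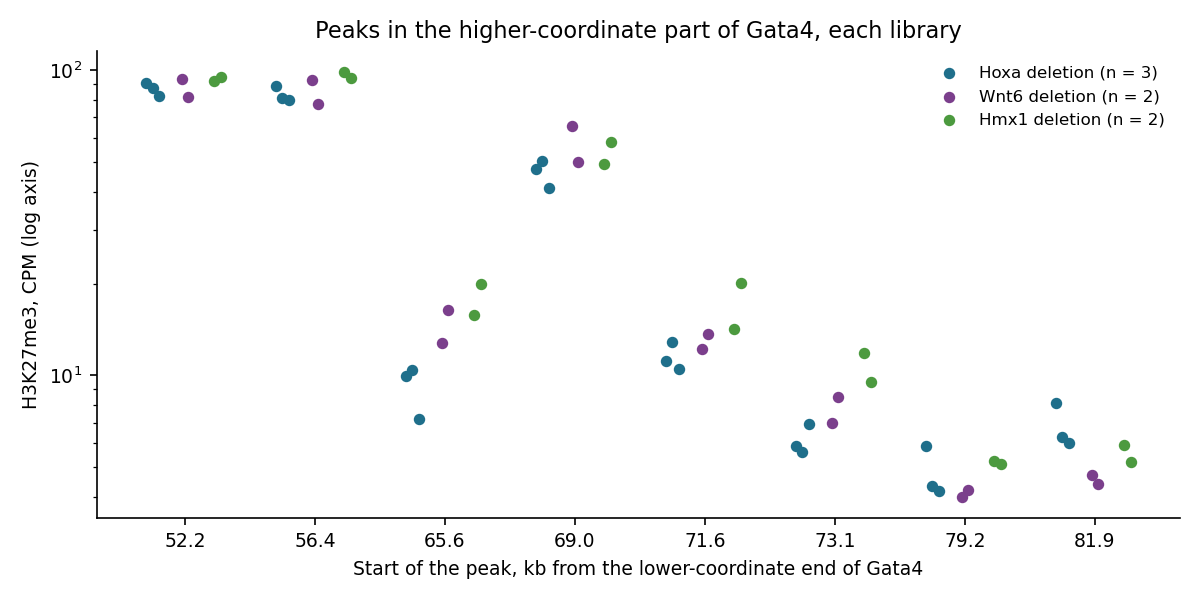
H3K27me3 in CPM (log axis) in each library at the 8 Gata4 peaks with the highest coordinates, placed in order and labelled by the distance of their start from the lower-coordinate end of the gene in kb; colours are the 3 deletions. The Hoxa libraries lie below all others at the peak of 7.22 to 19.95 CPM and overlap the others at the strong peaks to its left. At the peak of 5.62 to 11.8 CPM they also lie below the others, by very little (6.96 against 6.997 CPM). At the last peak they lie above the others.

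At Gata5 (chr2:180325088-180335503) a single peak, chr2:180333760-180335952, held 91.6% of the signal of the gene and lay at the 98.9th percentile of all peaks. It had 161, 153 and 162 CPM in the Hoxa deletion, 159 and 151 CPM in the Wnt6 deletion, and 171 and 169 CPM in the Hmx1 deletion. Both Hmx1 libraries were the highest, by little (log2 fold change 0.11). This peak holds the whole start window printed above. The other 4 peaks had 1.66 to 5.22 CPM. The peak of these with the smallest p in the Hoxa deletion, chr2:180317946-180318612, had 2.70, 2.67 and 4.06 CPM there, 4.01 and 4.83 CPM in the Wnt6 deletion, and 4.23 and 5.51 CPM in the Hmx1 deletion (log2 fold change -0.60, edgeR adjusted p = 0.066). Its adjusted p-value was under 0.05 in 3 of 18 other settings, with a range from 0.0221 to 0.800.

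At Gata6 (chr18:11052510-11085636) the mark lay over the lower-coordinate end and the flank before it, and the far part of the gene had no peak. The strongest peak, chr18:11053943-11056343, had 153, 143 and 146 CPM in the Hoxa deletion, 138 and 131 CPM in the Wnt6 deletion, and 144 and 147 CPM in the Hmx1 deletion. Both Wnt6 libraries were the lowest, and at 10.1% of all peaks the Wnt6 libraries did not overlap the others. With the adjoining peak chr18:11051980-11053375 (115 CPM), it made up most of the signal of the gene. Across its 7 peaks the log2 fold changes ran from -0.23 to 0.11 in the Hoxa deletion, from -0.23 to 0.20 in the Wnt6 deletion and from -0.02 to 0.20 in the Hmx1 deletion.

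The genes whose signal followed a Gata gene most closely over the 7 libraries were taken from 13792 genes with at least 3 peaks that shared no peak with a member. For Gata2 they were Gm27239 (Pearson r = 0.996), Nol4 (0.989) and Foxb2 (0.987). For Gata3 they were Dlx2 (0.990), 6430628N08Rik (0.986) and Myo3a (0.985), and for Gata4 they were Nfyc (0.998), Twist1 (0.995) and Hoxc13 (0.988). Gata5 was followed by Slc35g2 (0.995), Ptger3 (0.985) and Pank3 (0.976), and Gata6 by Lingo4 (0.992), Zfp385b (0.984) and Ddn (0.983). These values describe small movements over few libraries, and all genes of a library share its depth and scaling. Between 101 and 285 genes exceeded an r of 0.9 with each member. Among the members, r ran from 0.480 between Gata5 and Gata6 to 0.979 between Gata2 and Gata6.

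The mark at genes that work with GATA factors was described from lists. Among 8 family and zinc finger relatives, 7 had a peak, with a median density of 5.92 CPM per kb. Gata1, the erythroid member on chromosome X, had 2 peaks with 3.89 CPM in all (5.00 CPM per kb), far below its 5 relatives in the set. Trps1, an atypical GATA repressor, had 4.30 CPM over 2 peaks. The median density was 35.6 CPM per kb for 12 cofactors and blood partners, 46.9 for 10 heart partners, 41.6 for 10 endoderm partners and 34.0 for 8 trophoblast partners.

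No list gene was called in any deletion. At an adjusted p under 0.05 without a fold minimum, no list gene passed in the Wnt6 or Hmx1 deletion, against 0.0452 and 0.0484% of all genes, and in the Hoxa deletion 14 of 60 distinct list genes passed, 7 lower and 7 higher, where 18.1% of all genes tested did. Of the 7 lower genes, 5 lie on chromosome 8. They were Zfpm1, which encodes the GATA cofactor FOG1 (log2 fold change -0.66 ± 0.06, edgeR adjusted p = 9.2e-10), the blood regulators Lyl1 (-0.48 ± 0.07) and Klf1 (-0.53 ± 0.08), the heart regulator Hand2 (-0.55 ± 0.07) and Gatad2a, a subunit of the NuRD complex (-0.61 ± 0.10). The median of all 1854 genes of chromosome 8 was -0.53 in the Hoxa deletion, while the other 19 chromosomes had medians of 0.03 to 0.13. Relative to the chromosome 8 median the 5 genes differed by -0.13, 0.04, 0.0030, -0.02 and -0.08. No Gata gene of the set lies on chromosome 8.

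The other 2 lower genes were Lamb1, a basement membrane laminin of the endoderm list (-0.35 ± 0.09), and Tfap2c of the trophoblast list (-0.28 ± 0.07). The higher genes were Tead4 (0.54 ± 0.09), Krt8 (0.26 ± 0.08) and Krt18 (0.20 ± 0.06) of the trophoblast list, Trps1 (0.67 ± 0.21) and Mta1 (0.22 ± 0.08) of the relatives, and the pluripotency genes Klf4 (0.60 ± 0.09) and Tfcp2l1 (0.84 ± 0.18). Median log2 fold changes in the Hoxa deletion were 0.21 for the relatives, -0.0076 for the blood partners, -0.05 for the heart partners, 0.02 for the endoderm partners, 0.06 for the trophoblast partners and -0.0085 for the 5 Gata genes, beside 0.05 for all genes tested.

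**Figure D5:**
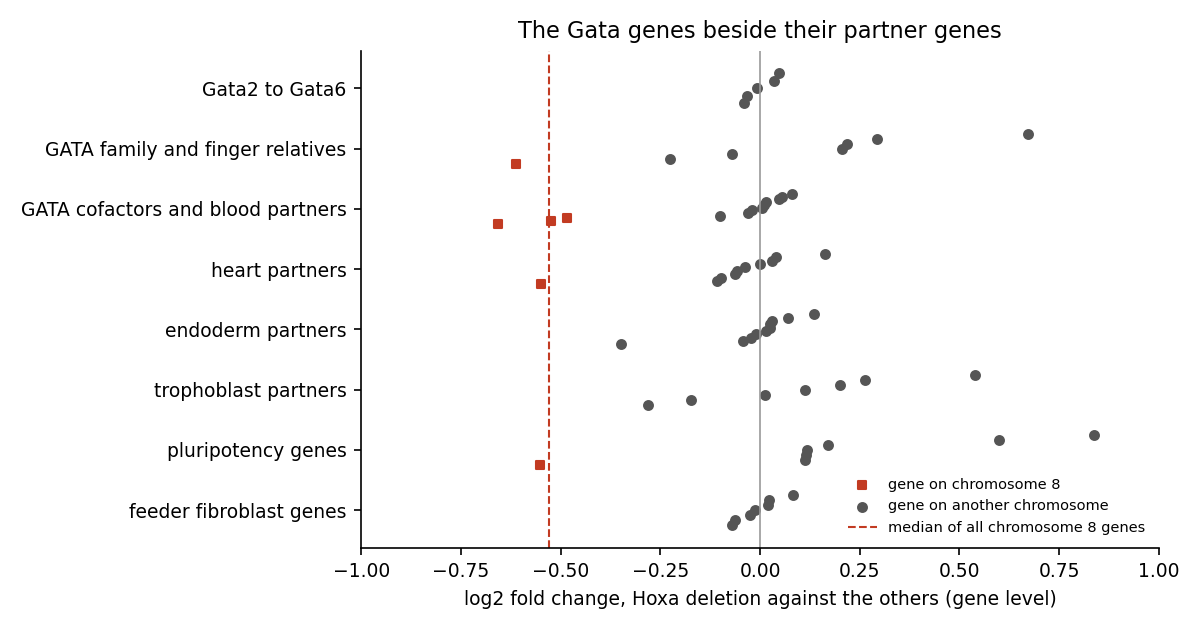
Gene-level log2 fold change in the Hoxa deletion against the other 2 deletions (horizontal axis) for the 5 Gata genes and the genes of 7 lists, each point a gene; red squares lie on chromosome 8 and the dashed line is the median of all chromosome 8 genes. The Gata genes lie between -0.04 and 0.05, while the 6 list genes on chromosome 8 lie near the chromosome's median of -0.53.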

How the data were processed

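For 7 H3K27me3 Cut&Tag libraries the authors deposited raw, unnormalized counts in peaks common to all; whether reads or fragments were counted is not stated. The submitters' processing notes name Trimmomatic, Bowtie2, SAMtools, Picard, MACS2, deepTools and mm10, with no role or version. How the peak list was made, and whether duplicates were removed, is not given in the sources used here. Peaks found in only some libraries would tilt such a list toward those libraries. Libraries were amplified by PCR, so counts are not independent molecules. The IgG libraries were not analysed here, and no background was subtracted.

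Gene bodies and promoters came from RefSeq (GRCm38.p6); peak positions are as deposited, with the start convention unstated. The gene table gives no strand or exons, so exonic and intronic peaks were not separated. Peaks were filtered with filterByExpr by genotype (74439 of 74458 kept), scaled by TMM factors (0.973 to 1.05) and fitted with glmQLFit and glmQLFTest of edgeR 4.0.16 in R 4.3.3, each deletion against the other 2 pooled. Gene values sum the peaks within 10 kb of the gene body. Benjamini-Hochberg adjustment covered all peaks or all genes. Standard errors were derived from the F statistic, and SE and 95% intervals cover the spread between libraries. DESeq2 1.42.0 was an alternative, as were other scalings, filters, windows, models and left-out libraries. Scripts were tested on simulated counts. Figures used matplotlib 3.10.9.

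The members and lists were chosen with earlier results of these data known. Named peaks are, per gene, the strongest, the one at or nearest a start and the one with the smallest p in each comparison, plus every called peak. Other peaks were named after their values were seen.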

Additional observations from a re-analysis of the deposited data

How the results depend on the processing

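The count of called member peaks and genes was 0 in all 3 deletions with DESeq2, other scalings, filters, windows and models and at the lower depth, and it was 0 to 0 with any 1 library left out. It moved in 1 of 126 alternatives: without a fold change minimum, 2 member peaks passed in the Hoxa deletion, both lower and both at Gata4. Where a left-out library leaves a deletion with 1, that library is assumed to vary like the others. Of 300 alternative values of the 15 gene-level changes, 283 moved by less than 1 SE, 17 by more, and 21 had the other sign, with a range from -0.18 to 0.15. The adjusted p of Gata2 in the Hoxa deletion (edgeR) fell to 0.0471 with abundance-dependent offsets, at a log2 fold change of 0.10, and was higher in the other 19. Of 1296 values of named peaks, 1195 moved by less than 1 SE and 101 by more. The log2 ratio of density of Gata5 over Gata4, 0.05 with the 10 kb window, was 0.26 for the gene body and reversed to -0.14 within 25 kb. The use of these windows for the density ratios was added after seeing the data.

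Correlations of the deviations of same-numbered libraries ran from -0.04 to 0.08, not above 0.1 for each pair. In each deletion replicate 1 was the shallowest library and replicate 2 the deepest. In a deletion with 2 libraries the deviations mirror each other, so these values cannot tell whether same-numbered libraries were prepared together. With the replicate block 0 member peaks and 0 genes were called in each deletion, and 3, 0 and 0 peaks had an adjusted p under 0.05 in edgeR. The share of all peaks that passed with the block was not computed. Totals as low as 6016500 counts limit the weak peaks, and the lowest count of a member peak was 2.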
